A study of Mus musculus with 42 samples.

Results

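The transcripts of 8 hepatokines, proteins that the liver secretes into the blood to act on metabolism or immunity, were followed in the livers of lean and obese mice. The set was fixed by gene name as Ahsg, Fetub, Lect2, Inhbe, Inhbc, Tsku, Enho and Fgl1, 8 of the 19758 gene names listed in any of the 6 tables of normalized counts, and all 8 were listed in all 6 tables. Livers came from 42 male C57BL/6J mice with 7 mice in each of 6 groups. For each genotype, WT and KO, these were a lean group, an obese group and an obese group given resolvin E1 (RvE1), here named for example KO obese+RvE1. KO mice lacked a working ChemR23, the receptor of this lipid mediator that is encoded by Cmklr1, after CRISPR/Cas9 editing, and WT mice were their littermates. Lean mice ate a diet with 10% of its energy as fat and obese mice a diet with 60%, for 15 weeks from 6 weeks of age. The RvE1 groups were injected with 300 ng on 4 days, every other group, lean mice included, received vehicle, and livers were taken after a fast.

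The liver is a major source of these proteins in the blood. Fetuin-A (Ahsg) and fetuin-B (Fetub) are cystatin-family glycoproteins, of which fetuin-A keeps calcium phosphate in solution and can inhibit the insulin receptor kinase, while fetuin-B inhibits an egg protease. Lect2 is a chemotactic protein that binds the receptors Met and Tie1. Inhbe and Inhbc encode the beta subunits of activin E and activin C, members of the TGF-beta family. Tsukushi (Tsku) is a small leucine-rich proteoglycan that acts on Wnt and BMP signalling. Enho encodes adropin, a peptide linked to fuel choice, and Fgl1 encodes a fibrinogen-like protein that is a hepatocyte mitogen and a ligand of the T cell receptor Lag3.

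Some of these genes are neighbours. On GRCm38, Ahsg (chr16:22891277-22899449, plus strand) lay 18884 bases from Fetub (chr16:22918334-22939778, plus strand), and Inhbe (chr10:127348857-127354411, minus strand) lay 1910 bases from Inhbc (chr10:127356322-127370431, minus strand), with 0 genes between them in each pair. The others were at chr13:56542464-56548502 (Lect2, minus strand), chr7:98350668-98361328 (Tsku, minus strand), chr4:41638144-41640324 (Enho, minus strand) and chr8:41191434-41215156 (Fgl1, minus strand). Antisense genes overlapped exons of Ahsg by 62 bases and of Inhbc by 268 bases, and Dnaic1 overlapped the end of Enho by 15 bases on the other strand. The strand setting of the counting is not given in the sources used here, so reads over those bases cannot be assigned to a strand.

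The promoters of Lect2 and Tsku are shown because these were the members that rose on the high fat diet in both genotypes. Each window runs from 250 bases before to 50 bases after a RefSeq start site on GRCm38.p6, minus strand, in lower case throughout. The windows are chr13:56548489-56548788 for Lect2 and chr7:98361239-98361538 for Tsku.

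Lect2: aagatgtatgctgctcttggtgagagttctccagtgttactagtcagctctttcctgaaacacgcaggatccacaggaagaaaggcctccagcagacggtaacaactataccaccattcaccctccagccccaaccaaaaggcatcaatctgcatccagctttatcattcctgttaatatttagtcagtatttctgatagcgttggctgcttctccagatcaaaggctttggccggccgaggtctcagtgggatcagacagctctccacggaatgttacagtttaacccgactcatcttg
Tsku: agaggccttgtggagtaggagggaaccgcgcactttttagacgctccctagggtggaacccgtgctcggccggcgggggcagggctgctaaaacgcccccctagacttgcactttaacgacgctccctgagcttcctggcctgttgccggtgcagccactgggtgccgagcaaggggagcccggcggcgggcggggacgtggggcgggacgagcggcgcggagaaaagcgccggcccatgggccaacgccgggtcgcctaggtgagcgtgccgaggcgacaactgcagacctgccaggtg

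On both strands of these windows, 5 motifs were searched. TATAAA, the TATA box, was present in 13.6% of 32851 promoter windows and in that of Fetub. CACGTG, the E-box bound by clock proteins, was present in 7.15% and in no member's window. AGGTCA, the core of the sites of nuclear receptors, was present in 16.3% and in that of Inhbc at position 41 from the start site. TTATGTAA, a site of PAR bZIP factors such as Dbp, was present in 0.938% and in no member's window. CCAAT was present in 37.4% and in the windows of Ahsg, Fetub and Inhbe, and the windows of Lect2 and Tsku held none of the 5.

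The members differed widely in level. Per kilobase of annotated exon, Ahsg averaged 71001 ± 11197 normalized counts in WT lean livers (SD, n = 7), against 3246 ± 999 for Fetub and 1409 ± 355 for Lect2. Fgl1 followed at 1079 ± 308, Inhbc at 983 ± 198, Tsku at 602 ± 526, Inhbe at 544 ± 343 and Enho at 293 ± 136. The lengths join all annotated exons of a gene, 5319 bases for Inhbe and 4434 for Fgl1 against 919 for Lect2. The order of the lower members therefore also depends on the annotation. Ahsg stood above every other member in every WT lean mouse, and Fetub (lowest mouse 2203) stood above Lect2 (highest mouse 2067), whereas the ranges of all neighbours from Lect2 downward overlapped. Ahsg alone took 0.696% ± 0.101 of the reads on listed genes in WT lean livers, and Enho took 0.00165% ± 0.000745.

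Libraries held between 15992525 and 43841120 reads on listed genes with a median of 24298290. Cmklr1 averaged 64.3 ± 25.1 normalized counts in WT lean and 12.7 ± 4.69 in KO lean livers, and the groups did not overlap. Summed over 7 hepatocyte markers, the ranges of all compared groups overlapped. Markers of adipocytes and of acinar pancreas (4 each) were listed only in the table of KO obese against WT obese mice. There the summed adipocyte markers had medians of 1.92 in WT obese and 3.40 in KO obese livers but reached 117 and 61.9 in single mice, and the summed acinar markers reached 35.2 and 11.5. Kupffer cell markers summed to between 5624 and 12830 in KO lean livers against 2320 to 5490 in WT lean livers, and all 5 that were tested were higher in KO lean livers. Of 13031 genes, 16.3% passed an adjusted p of 0.1 in that comparison. Mouse identifiers open with a number that is shared by up to 4 mice of a group, and only 1 number occurs in more than 1 group (23, in KO obese and KO obese+RvE1). What the number stands for is not stated in the sources used here. It cannot be told apart from the group in the diet and genotype comparisons or in the RvE1 comparison of WT mice. In the RvE1 comparison of KO mice only the number 23 is shared.

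The first question was how the high fat diet changed hepatokine transcripts, in WT and in KO livers. In WT obese livers Tsku and Lect2 rose, and in KO obese livers Tsku and Lect2 rose and Inhbc fell. These were 2 of 8 members in WT mice, where 6.27% of 14012 genes passed an adjusted p of 0.1 (3.65% higher and 2.61% lower), and 3 of 8 in KO mice, where 24.1% of 14213 genes did (12% higher and 12.1% lower). An unadjusted p under 0.05 was found for 5 of 8 members in WT mice, as for 18.2% of genes, and for 3 of 8 in KO mice, as for 32% of genes. The members' median difference on the log2 scale was 0.01 (WT) and 0.02 (KO), beside 0.00 over all genes in both genotypes. In 0 of 8 members did obese and lean mice separate fully in either genotype, while 1.36% of genes in WT and 2.1% in KO mice did. Fewer hepatocytes and less RNA per hepatocyte cannot be told apart in whole liver.

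**Figure D1:**
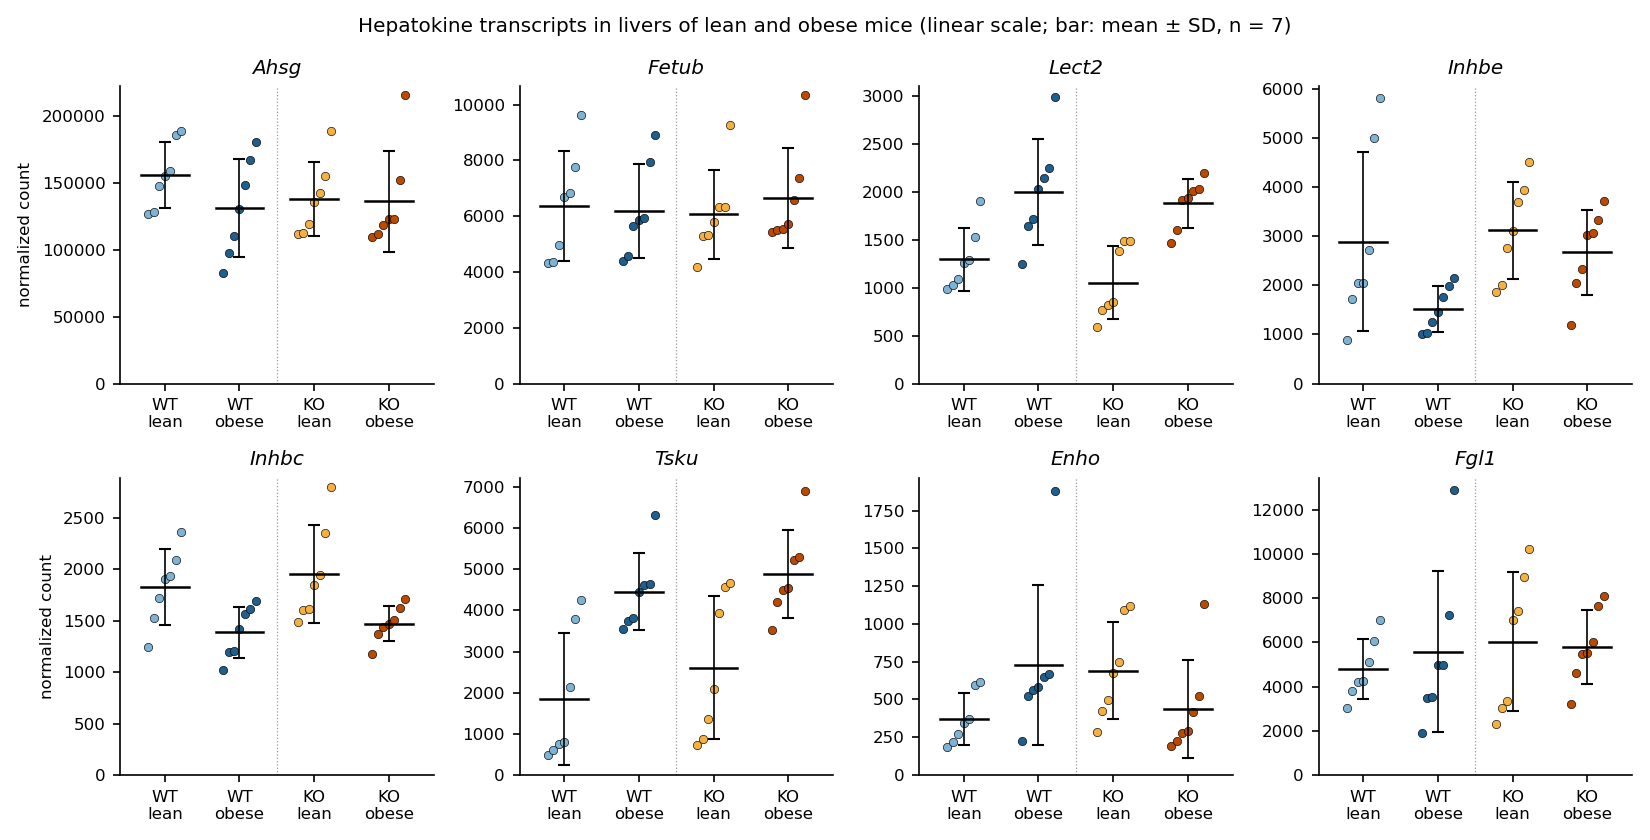
Normalized counts of each hepatokine transcript (y axis, linear, from 0) in every mouse of the WT and KO diet tables (x axis), with the mean and SD of 7 mice as a bar. Obese mice of both genotypes sit high for Tsku and Lect2, and lean mice are widely spread for Tsku, from 488 to 4264 in WT and from 729 to 4675 in KO livers.

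Tsku had the largest log2 difference of the 8 members in both genotypes. In WT lean livers it ran from 488 normalized counts through a median of 799 to 4264, and in WT obese livers from 3560 through 4455 to 6319. The obese group rose 3.37-fold (log2 difference, obese minus lean, 1.75, SE 0.43, 95% interval 0.84 to 2.67, adjusted p = 0.035), with 4 of 7 obese mice above every lean mouse. In KO mice Tsku ran from 729 through 2099 to 4675 in lean livers and from 3534 through 4554 to 6897 in obese livers. There it rose 2.33-fold (log2 difference 1.22, SE 0.38, adjusted p = 0.041), with 3 of 7 obese mice above every lean mouse.

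The lean Tsku values followed the identifier numbers. In WT lean livers the 2 mice numbered 21 held 4264 and 3800 normalized counts, which is the level of obese mice, while those numbered 8 held 612 and 488, the mouse numbered 19 held 745, and those numbered 26 held 799 and 2142. In KO lean livers the 3 mice numbered 20 held 4569, 4675 and 3932, those numbered 14 held 1367 and 2099, and those numbered 9 held 884 and 729. No such low mouse was seen in either obese group, where the lowest Tsku value was 3534. Differences between numbers made up 89.4% of the variation of log2 Tsku within WT lean and 96.5% within KO lean mice, beside medians of 67.8% and 38.1% over all tested genes, and 69.9% within WT obese and 4.73% within KO obese mice.

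Leaving out all mice of a number, a choice made after the values were seen, moved the Tsku difference. Without the WT lean mice numbered 21 the log2 difference was 2.41 (adjusted p = 0.00094), and without those numbered 8 it was 1.26 (adjusted p = 0.080), and the call was lost without the WT obese mice numbered 27 (adjusted p = 0.145) or 6 (adjusted p = 0.138). Without the KO lean mice numbered 20 it was 2.04 (adjusted p = 0.00028), and without those numbered 9 it was 0.68 (adjusted p = 0.150). The KO call was also lost without the mice numbered 14 (adjusted p = 0.108), 10 (adjusted p = 0.128) or 31 (adjusted p = 0.159). With edgeR the WT difference missed the threshold (log2 difference 1.28, adjusted p = 0.124). With the identifier number as a block both Tsku calls stood, at an adjusted p of 0.074 in WT and 0.077 in KO mice. That block used the same correlation for every gene, 0.263 in WT and 0.237 in KO mice. Lean Tsku varied mostly between numbers, so this fit cannot show whether the Tsku calls hold once the numbers are allowed for.

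**Figure D2:**
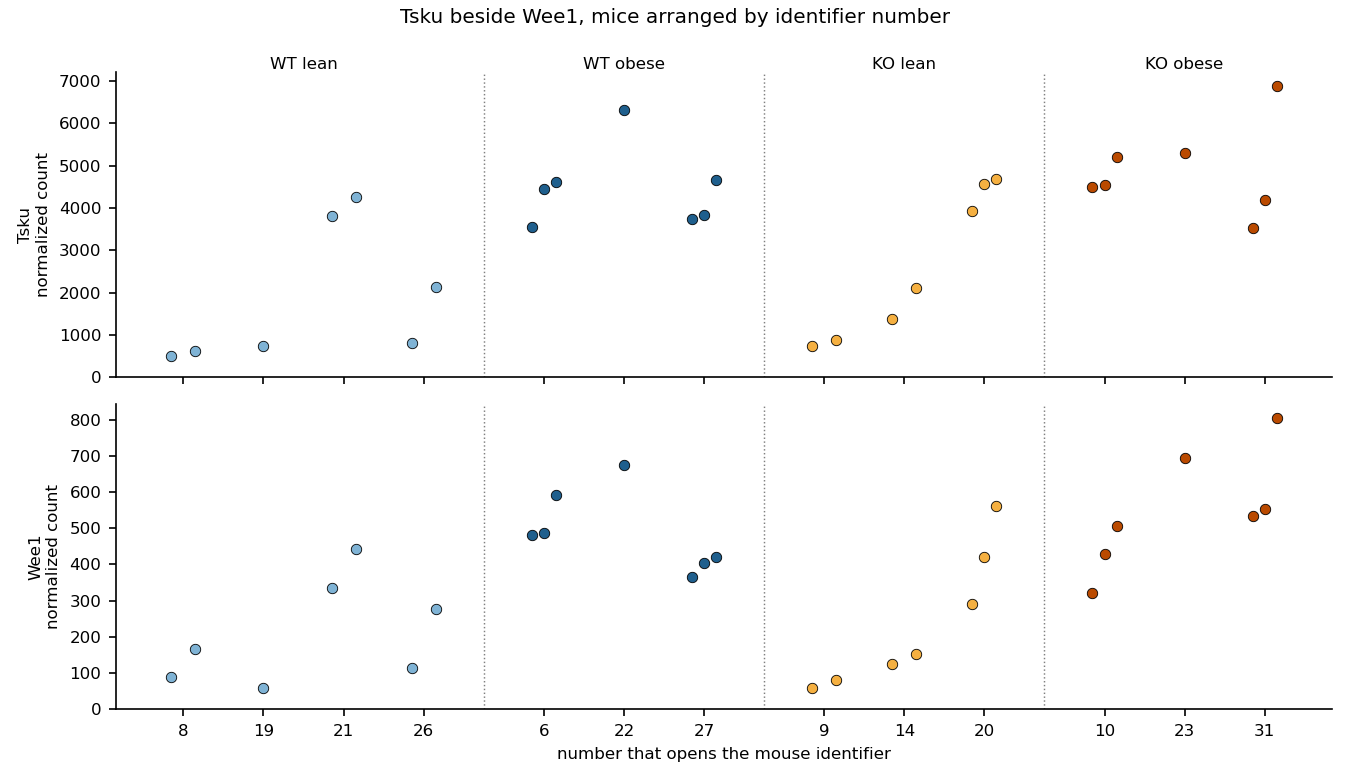
Normalized counts of Tsku and Wee1 (y axes, linear, from 0) in single mice of the WT and KO diet tables, arranged by group and by the number that opens the mouse identifier (x axis). The WT lean mice numbered 21 and the KO lean mice numbered 20 stand at or near the level of the obese mice in both genes, and the other lean mice sit lower. Wee1 was picked for its likeness to Tsku over these same libraries.

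The genes whose pattern over these 28 libraries was most like that of Tsku were Wee1, a cell cycle kinase gene under circadian control, and Slc46a3, a lysosomal transporter gene. Their root mean square differences from Tsku were 0.39 and 0.41 on standardized log2 values, the smallest of 13367 genes. Because Wee1 was picked for this likeness, its match to Tsku across the identifier numbers is not separate support. Wee1 held 441 and 335 normalized counts in the WT lean mice numbered 21 and between 57.2 and 278 in the other WT lean mice. In KO lean livers Wee1 held 562, 421 and 289 in the mice numbered 20 and between 57.7 and 151 in the others. Nr1d1, a clock repressor gene, was lowest in the same WT lean mice numbered 21 at 515 and 407. The mouse numbered 19, whose Tsku value was low at 745, held 618 against 2297 to 3682 in the remaining WT lean mice. Nr1d1 values of KO lean mice are not reported here. Obese livers held 361 to 1715 of Nr1d1. The hour at which each liver was taken is not given in the sources used here, and its part in the Tsku result was not tested.

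Lect2 also rose in both genotypes, by less than Tsku. It ran from 981 through 1255 to 1900 normalized counts in WT lean livers and from 1244 through 2026 to 2981 in WT obese livers, with 4 of 7 obese mice above every lean mouse. The rise was 1.53-fold (log2 difference 0.61, SE 0.18, 95% interval 0.23 to 1.00, adjusted p = 0.075). In KO livers it ran from 585 through 850 to 1483 in lean and from 1468 through 1936 to 2191 in obese mice, with 6 of 7 obese mice above every lean mouse. The KO rise was 1.88-fold (log2 difference 0.91, SE 0.20, 95% interval 0.50 to 1.32, adjusted p = 0.0096).

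The KO call for Lect2 stood in each of 14 fits with 1 mouse left out (adjusted p 0.0023 to 0.025). The WT call stood in 5 of 14 such fits, with adjusted p between 0.030 and 0.142. It was lost without any 1 of the WT lean mice 19R, 21L, 21R, 8RL and 8R or the WT obese mice 27-2L, 27-2R, 6RL and 6R, and with the identifier number as a block (adjusted p = 0.215). The KO lean mice numbered 20 again stood highest for Lect2, at 1480, 1376 and 1483, against 585 to 850 in the other 4. Kupffer cell markers moved the other way in the same KO table, where 4 of 5 fell in obese livers, and their summed level was 6173 to 14150 in lean and 3533 to 4660 in obese mice. In KO obese livers 2 of 4 lymphocyte markers also fell (Ms4a1 by 1.68 and Cd79a by 0.94 on the log2 scale), as did 2 of 5 sinusoidal endothelial markers (Clec4g by 0.73 and Kdr by 0.44), 1 of 5 stellate cell markers (Des by 0.59) and 1 of 7 hepatocyte markers (Hpx by 0.60). Of all tested genes 12.1% fell in that comparison. In WT obese livers 0 of 5 Kupffer cell, 0 of 4 lymphocyte and 0 of 7 hepatocyte markers passed, where 6.27% of genes did. Of the sinusoidal endothelial and stellate cell markers 0 of 5 passed in each set. The WT median log2 differences were 0.02 (Kupffer cell), 0.21 (lymphocyte), -0.13 (hepatocyte), -0.34 (endothelial) and -0.14 (stellate cell). The part of these markers in the Lect2, Tsku and Inhbc results was not tested. Gstk1, a mitochondrial glutathione transferase gene, and Cyp2d26, a cytochrome P450 gene, had the patterns most like that of Lect2 (root mean square difference 0.459 and 0.463). Gstk1 rose in WT obese livers by 0.56 on the log2 scale with no overlap between the groups (adjusted p = 0.015) and in KO obese livers by 0.29 (adjusted p = 0.070). Because Gstk1 was picked for likeness to Lect2 over these same libraries, its rise is not separate support for that of Lect2.

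Of Inhbe and Inhbc, which encode activin subunits, only Inhbc in KO mice passed the test. Inhbc ran from 1485 through 1852 to 2805 normalized counts in KO lean and from 1178 through 1472 to 1713 in KO obese livers, with 4 of 7 obese mice below every lean mouse. It fell by 0.38 on the log2 scale (SE 0.14, 95% interval -0.67 to -0.09, adjusted p = 0.068). In WT livers the estimate was close to this at -0.39 (SE 0.15, adjusted p = 0.158), with 1248 to 2362 in lean and 1022 to 1689 in obese mice, and it passed without the WT lean mouse 21R, the lowest of its group (adjusted p = 0.078). The KO call for Inhbc was lost with the identifier number as a block (adjusted p = 0.213), when counts were scaled to total reads (adjusted p = 0.300), which moved the median of all genes by 0.14, and in 6 of 14 fits with 1 mouse left out. Those 6 were the KO lean mice 9L and 9RL and the KO obese mice 10RL, 10R, 31N and 31R, and the adjusted p without them lay between 0.104 and 0.128.

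Inhbe was the more variable of the pair. WT lean livers held 881 to 5820 normalized counts with a median of 2051, and WT obese livers held 1010 to 2157 with a median of 1451, so the obese range lay inside the lean range. The log2 difference was -0.74 (SE 0.34, adjusted p = 0.261), and the WT lean mice numbered 8 stood apart at 5012 and 5820, and without them the difference was -0.28 (adjusted p = 0.580). Without the mouse numbered 19, the lowest WT lean mouse at 881, the difference was -0.98 (adjusted p = 0.089). In KO livers the log2 difference was -0.24 (SE 0.25, adjusted p = 0.535), with 1869 to 4507 in lean and 1187 to 3712 in obese mice. Although Inhbe and Inhbc are adjacent, Inhbc ranked 3121st of 13367 genes by likeness to Inhbe over the 28 diet libraries (root mean square difference 1.19).

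Of 17 genes of activin subunits, receptors, inhibitors and signalling, 14 were tested in WT and 15 in KO mice. Fst, which encodes the activin-binding protein follistatin, fell in both genotypes. It went from 58.4 to 989 normalized counts in WT lean to 21.8 to 114 in WT obese livers (log2 difference -2.14, SE 0.52, adjusted p = 0.032). In KO mice it went from 74.2 to 204 in lean to 14.1 to 97.0 in obese livers (log2 difference -1.49, SE 0.35, adjusted p = 0.015). The receptor genes Bmpr2 and Acvr1 rose in KO obese livers, by 0.76 (adjusted p = 0.043) and 0.49 (adjusted p = 0.044) on the log2 scale. These genes had a median log2 difference of -0.15 in WT mice and of 0.33 in KO mice.

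The fetuin genes did not pass in either genotype. Ahsg held 126767 to 188608 normalized counts in WT lean and 82411 to 180355 in WT obese livers, a log2 difference of -0.29 (SE 0.21, 95% interval -0.73 to 0.16). In KO livers it held 112077 to 188978 in lean and 109255 to 215813 in obese mice (log2 difference -0.04, SE 0.20). Fetub held 4322 to 9622 in WT lean and 4402 to 8922 in WT obese livers (log2 difference -0.03, SE 0.20, 95% interval -0.45 to 0.40), and in KO livers the log2 difference was 0.13 (SE 0.17, 95% interval -0.24 to 0.50). The intervals leave room for moderate changes of both genes. Ahsg and Fetub moved alike among mice, with Fetub 56th of 13367 genes by likeness to Ahsg (root mean square difference 0.711), and the KO obese mouse 23L was the highest for both, at 215813 and 10361.

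In WT lean mice 99.6% of the variation of log2 Ahsg lay between identifier numbers (median of all genes 67.8%). The mice numbered 8 held 126767 and 128477, those numbered 21 held 155290 and 159210, and those numbered 26 held 185658 and 188608. This did not hold in every group. The share for Ahsg was 11.6% in KO lean (median 38.1%), 45.5% in WT obese (42.6%) and 90.4% in KO obese mice (51.2%). With RvE1 it was 2.28% in WT (median 44.1%) and 20.6% in KO obese mice (30.2%). F10, which encodes coagulation factor X, and the ribosomal protein gene Rpl4 had the patterns most like that of Ahsg (0.416 and 0.528). Asgr2, an asialoglycoprotein receptor gene, and Rbp4, the plasma retinol carrier gene, were most like Fetub (0.373 and 0.523).

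The relatives of the fetuins and of Fgl1, which are the kininogens, histidine-rich glycoprotein, the fibrinogen chains and Fgl2, gave 0 of 7 calls in WT and 2 of 7 in KO mice. The shares over all genes were 6.27% and 24.1%. In KO obese livers Hrg rose by a log2 difference of 0.52 (adjusted p = 0.035, SE 0.15) and Fgl2 fell by 0.46 (adjusted p = 0.071, SE 0.17). Kng1 and Kng2 had log2 differences of -0.28 and -0.30 in WT and of -0.08 and -0.06 in KO mice. The fibrinogen chain genes Fga, Fgb and Fgg had -0.64, -0.47 and -0.53 in WT mice (adjusted p 0.161, 0.204 and 0.122) and -0.07, -0.30 and -0.21 in KO mice. Over the 7 the median log2 difference came to -0.44 in WT mice and to -0.08 in KO mice.

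Fgl1 itself did not pass. It ran from 3035 through 4270 to 6998 normalized counts in WT lean and from 1906 through 4956 to 12912 in WT obese livers (log2 difference 0.04, SE 0.32). In KO livers it ran from 2288 through 7001 to 10211 in lean and from 3224 through 5538 to 8090 in obese mice (log2 difference 0.09, SE 0.32). The 95% intervals were -0.63 to 0.71 and -0.58 to 0.76, so a moderate change in either direction would not have been detectable at this spread. Lrg1, an acute-phase glycoprotein gene, was the gene most like Fgl1 (0.586), followed by Syt12 (0.624).

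The Enho estimates pointed in opposite directions in WT and KO mice, and neither passed. WT lean livers held 186 to 617 normalized counts with a median of 346, and WT obese livers held 228 to 1881 with a median of 585 (log2 difference 0.85, SE 0.36, 95% interval 0.08 to 1.62, adjusted p = 0.224). KO lean livers held 285 to 1117 with a median of 673, and KO obese livers held 195 to 1131 with a median of 291 (log2 difference -0.77, SE 0.37, 95% interval -1.55 to 0.00, adjusted p = 0.157). The KO difference of diet effects against WT was -1.62 on the log2 scale (SE 0.55, 95% interval -2.75 to -0.49, unadjusted p = 0.0066), and it missed the threshold over 13368 genes (adjusted p = 0.147). It passed with DESeq2 (adjusted p = 0.061) and with library quality weights (adjusted p = 0.015), and reached 0.603 in the alternative where it was weakest.

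Single mice weighed on the Enho estimates. The WT obese mouse 27RL held 1881 and the KO obese mouse 23L held 1131 normalized counts, while the other obese mice held 228 to 667 and 195 to 520. Without the KO obese mouse 23L the KO difference was -1.04 (adjusted p = 0.030), and without the KO lean mouse 20L it was -0.96 (adjusted p = 0.091). Without the WT obese mouse 6R the WT difference was 1.09 (adjusted p = 0.095). The difference between the genotypes' diet effects passed without the KO lean mouse 20R (-1.60, adjusted p = 0.082) or without all KO lean mice numbered 20 (-1.96, adjusted p = 0.079). Eif2s1, a translation initiation factor gene, and Mup15, a major urinary protein gene, were most like Enho (0.681 and 0.682), the widest distance of a nearest gene in the set.

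No member passed in the test of the difference between the diet effects of KO and WT mice, where 0.00748% of 13368 genes did, and 1 of 8, Enho, had an unadjusted p under 0.05, as 18.4% of genes had. The Lect2 effects differed by 0.29 (95% interval -0.28 to 0.86), the Tsku effects by -0.53 (-1.80 to 0.73) and the Inhbc effects by 0.01 (-0.41 to 0.43).

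**Figure D3:**
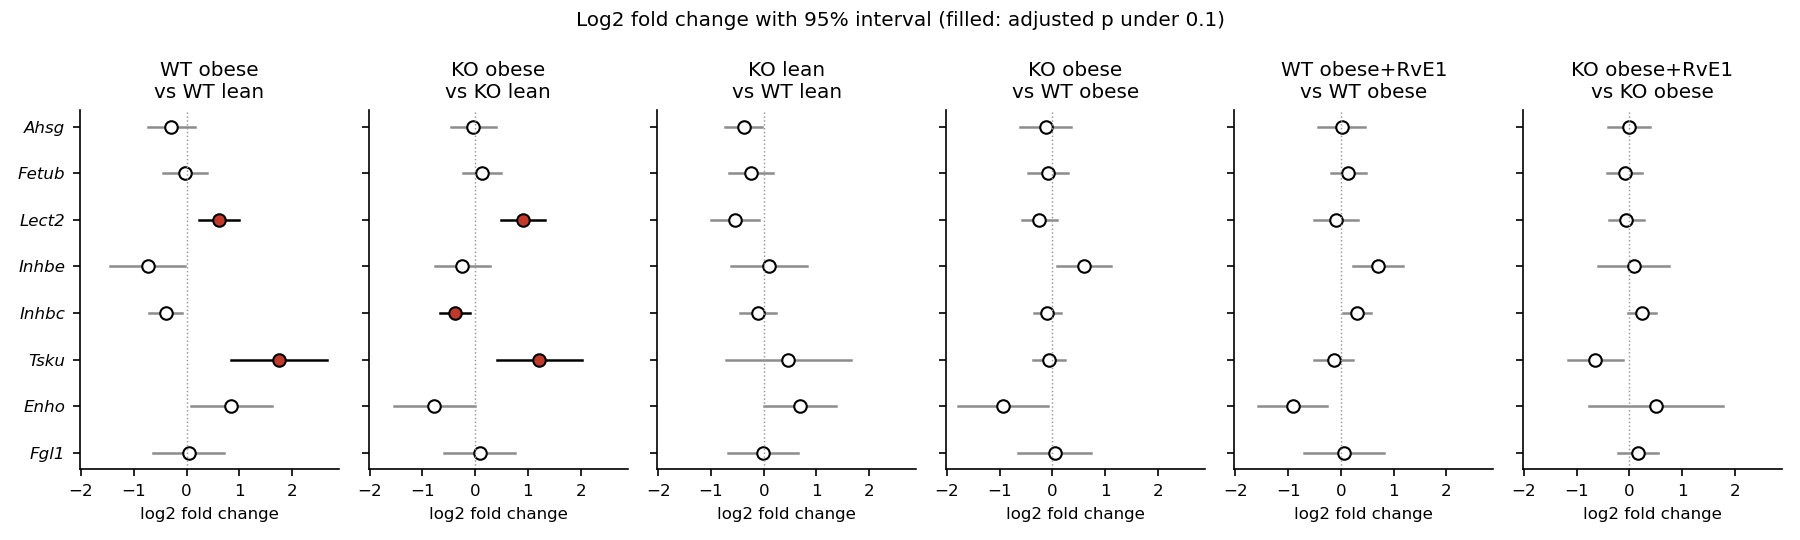
Log2 fold changes, the log2 differences of the text, (x axis) of the 8 members (y axis) in the 6 comparisons, 1 panel each, with 95% intervals as lines and filled points where the adjusted p was under 0.1. The filled points are Lect2 and Tsku to the right of 0 in both diet panels and Inhbc to the left of 0 in KO mice, and the other 4 panels have none.

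The next question was whether loss of ChemR23 alone changed these transcripts. In lean mice 0 of 8 members passed, while 16.3% of 13031 genes did, and 2 of 8 had an unadjusted p under 0.05 by limma, where 26.8% of genes had. Groups overlapped in all 8, while 0.744% of genes did not overlap. In the same comparison edgeR passed 0 members and DESeq2 passed Ahsg (adjusted p = 0.065). Ahsg held 130995 to 197071 normalized counts in WT lean and 101778 to 172161 in KO lean livers, with 5 of 7 KO mice below every WT mouse (log2 difference -0.38, SE 0.17, adjusted p = 0.155). Lect2 held 1020 to 1980 in WT lean and 531 to 1351 in KO lean livers, with 4 of 7 KO mice below every WT mouse (log2 difference -0.54, SE 0.22, adjusted p = 0.121). Enho had a log2 difference of 0.68 (SE 0.32, adjusted p = 0.189).

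Both Ahsg and Lect2 passed when counts were scaled to total reads (adjusted p = 0.055 and 0.042), a scaling that moved the median of all genes by -0.12. With library quality weights Ahsg, Fetub, Lect2 and Enho passed, with log2 differences of -0.43, -0.45, -0.86 and 0.77. Leaving out the KO lean mice numbered 20 gave a Lect2 difference of -0.95 (adjusted p = 0.014), and leaving out the KO lean mouse 20R let Ahsg and Lect2 pass (adjusted p = 0.057 and 0.047). Lect2 also passed without the WT lean mouse 19R (adjusted p = 0.097), Ahsg without the WT lean mice numbered 8 (adjusted p = 0.095) and Enho without the KO lean mice numbered 20 (1.02, adjusted p = 0.069). The higher Kupffer cell markers of KO lean livers, given above, moved with this comparison. Ms4a1 and Hpx were also higher in KO lean livers, by 1.09 and 0.80 on the log2 scale, and the cholangiocyte marker Krt19 and the stellate cell marker Reln were lower, by 0.62 and 0.49. The part of these markers in the comparison was not tested. The WT lean and KO lean libraries here are those of the diet comparisons, so these values are not independent of the diet values.

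In obese mice 0 of 8 members passed between KO and WT, where 0.0141% of 14162 genes did. Inhbe and Enho had an unadjusted p under 0.05, as 2.25% of genes had. The groups of every member overlapped, while those of 0.0282% of genes did not. Inhbe held 1108 to 2383 normalized counts with a median of 1599 in WT obese and 1139 to 3615 with a median of 2919 in KO obese livers, with 4 of 7 KO mice above every WT mouse (log2 difference 0.60, SE 0.24, unadjusted p = 0.026, adjusted p = 1.00). Enho held 250 to 2069 in WT obese and 190 to 1085 in KO obese livers (log2 difference -0.93, SE 0.41, unadjusted p = 0.035). The log2 differences of the other 6 lay between -0.25 for Lect2 and 0.04 for Fgl1. Here edgeR and DESeq2 also passed 0 members.

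The last question was whether RvE1 changed the transcripts in obese mice, and whether this depended on ChemR23. RvE1 gave 0 of 8 calls in WT obese and 0 of 8 in KO obese mice with limma, edgeR or DESeq2, and by limma 0% of all genes passed in either table, where edgeR passed 1 and 0 and DESeq2 25 and 17 genes. The groups overlapped in all 8 members in both tables, while 0.107% of genes in WT and 0.0211% in KO mice did not overlap. An unadjusted p under 0.05 was found for 3 members in WT mice, where 6.08% of 13085 genes had such a value, and for 1 member in KO mice, where 8.3% of 14207 genes had.

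In WT mice these were Inhbe, Inhbc and Enho. Inhbe held 1185 to 2546 normalized counts with a median of 1703 after vehicle and 1667 to 4395 with a median of 3191 after RvE1, with 5 of 7 treated mice above every vehicle mouse (log2 difference 0.71, SE 0.22, unadjusted p = 0.0060, adjusted p = 0.772). The 4 RvE1 mice numbered 7 held 3191 to 4395, and the 3 numbered 30 held 1667 to 2708. Inhbc held 1199 to 1993 after vehicle and 1679 to 2375 after RvE1 (log2 difference 0.30, SE 0.12, unadjusted p = 0.025). Enho held 267 to 2207 after vehicle and 261 to 455 after RvE1, so that 6 of 7 vehicle mice stood above every treated mouse (log2 difference -0.91, SE 0.31, unadjusted p = 0.0095, adjusted p = 0.772).

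In KO mice the member was Tsku. It held 3565 to 6923 normalized counts after vehicle and 1532 to 5079 after RvE1, with 4 of 7 treated mice below every vehicle mouse (log2 difference -0.65, SE 0.25, unadjusted p = 0.018, adjusted p = 0.563). In WT mice the Tsku log2 difference was -0.14 (SE 0.17), with 3019 to 3989 in the RvE1 mice numbered 30 and 4653 to 6396 in those numbered 7. The difference of the RvE1 effects between genotypes was -0.52 for Tsku (95% interval -1.16 to 0.13), -0.63 for Inhbe (-1.48 to 0.21) and 1.41 for Enho (-0.06 to 2.89), and 0 of 8 members passed, as did 0% of 12573 genes by limma, edgeR or DESeq2. None of the 8 had an unadjusted p under 0.05, where 2.35% of genes had. The identifier number 23 gives the only values within a number, from 1 vehicle mouse and 2 RvE1 mice, which held 5352 against 3050 and 4067 of Tsku, 1140 against 459 and 103 of Enho, and 1197 against 1272 and 5011 of Inhbe.

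**Figure D4:**
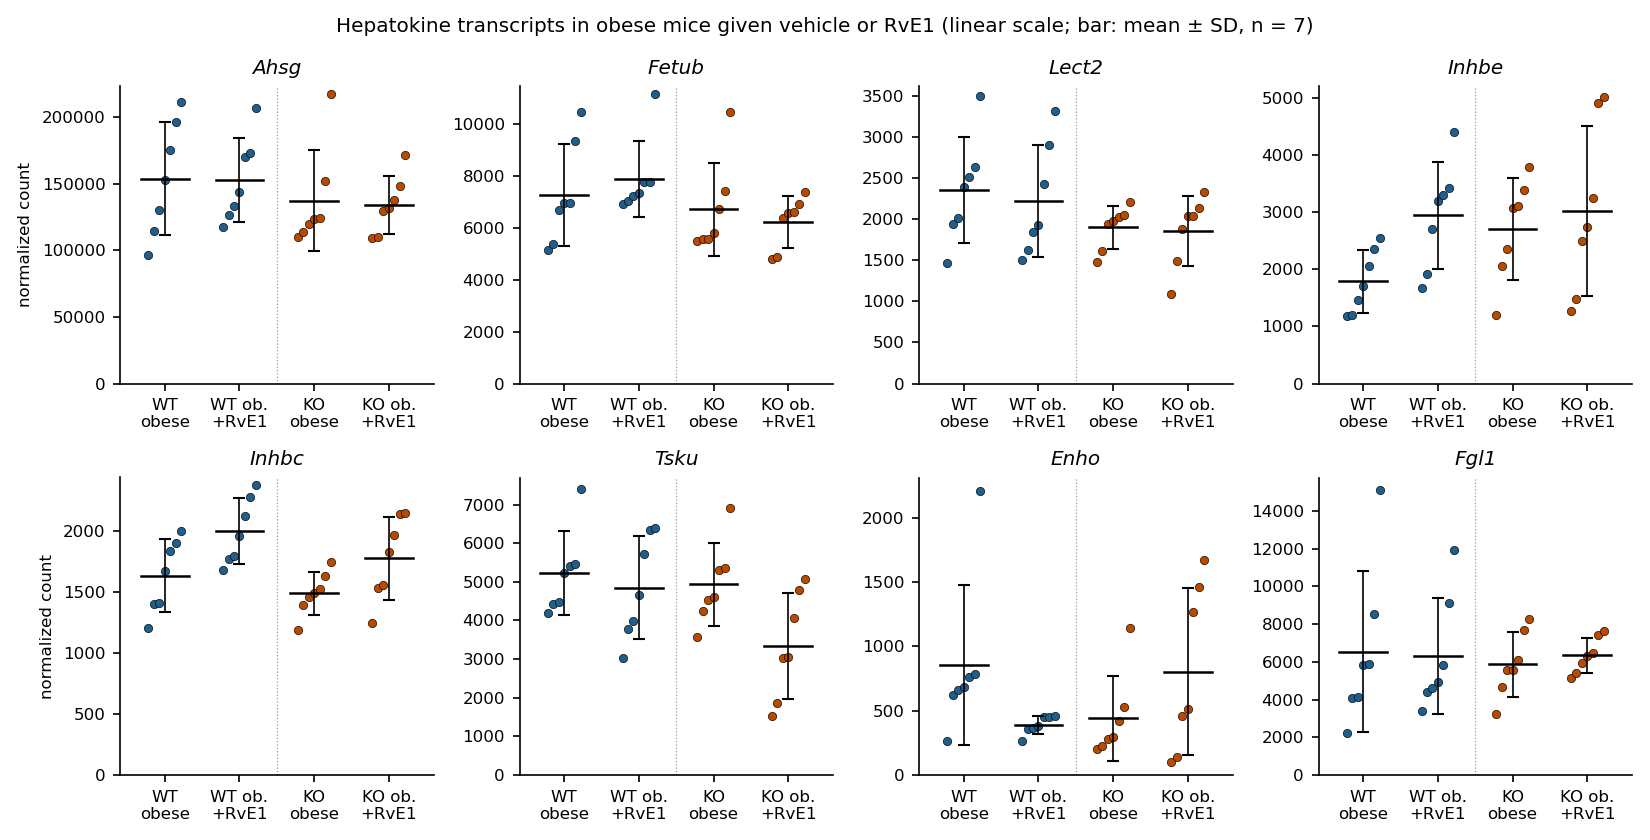
Normalized counts of each hepatokine transcript (y axis, linear, from 0) in every obese mouse of the WT and KO RvE1 tables (x axis), with the mean and SD of 7 mice as a bar. Groups overlap in all 8 genes, and Enho in KO obese+RvE1 mice is spread from 103 to 1671.

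Enho and Inhbe took opposite extremes in some mice of some groups, which were picked after their values were seen. In KO obese+RvE1 livers the mice 12-2L and 23RL had the lowest Enho values, at 141 and 103 normalized counts, and the highest Inhbe values, at 4900 and 5011. The KO obese mouse 23L, the highest of its group for Enho at 1131 in the diet table, was the lowest for Inhbe at 1187. The WT lean mice numbered 8 were the lowest of their group for Enho, at 217 and 186, and the highest for Inhbe, at 5012 and 5820. KO lean mice did not show this, since the mouse 20L was the lowest for Enho at 285 and the second lowest for Inhbe at 2007, and the mouse 14-2L was the highest for Inhbe at 4507 with a high Enho value of 748. The root mean square difference of Inhbe from Enho over the 28 diet libraries was 1.71, beside 1.72 from Fetub and 1.76 from Tsku.

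Other signals that the liver secretes were read from a list of 20 genes, of which 19 were tested in each diet table. In WT obese livers 0 rose and 3 fell, namely Fgf21, Fst and Igfbp1, with log2 differences of -1.68 (adjusted p = 0.010), -2.14 (adjusted p = 0.032) and -1.47 (adjusted p = 0.0997). Of all tested genes 3.65% rose and 2.61% fell there. Fgf21, an endocrine growth factor gene of the fasted liver, held 213 to 1003 normalized counts in WT lean and 84.0 to 197 in WT obese livers, with no overlap. In KO obese livers 3 rose and 5 fell, where 12% of all tested genes rose and 12.1% fell. Those with the smallest adjusted p were Lcn2, an acute-phase lipocalin gene that rose by 2.69, Igfbp2, an insulin-like growth factor carrier gene that fell by 1.62, Fgf21, which fell by 1.39, and Fst, which fell by 1.49 on the log2 scale. Fst is also in the activin list. The list had a median of -0.14 in WT and of -0.05 in KO mice, and by limma 0 of the list passed in the genotype and RvE1 comparisons. Of all genes 16.3% passed between the lean genotypes and 0.0141% between the obese genotypes. In the RvE1 comparisons limma passed 0 of all genes. There the Fgf21 log2 difference was 1.17 in WT and 0.27 in KO obese mice, and the difference between these did not pass. With DESeq2 the paper reports a significant rise of Fgf21 after RvE1 in WT obese mice.

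Receptors and targets of the other members, such as Met, Tie1, Lag3 and Insr, gave 0 of 10 calls in WT obese mice. Over all genes 6.27% passed in WT obese and 24.1% in KO obese mice. In KO obese mice 1 of 10 passed, the Wnt receptor gene Fzd4, which rose by 0.91 on the log2 scale (adjusted p = 0.041, SE 0.28). In KO lean against WT lean livers the insulin receptor gene Insr fell by 0.43 (adjusted p = 0.070) and the endotoxin receptor gene Tlr4 rose by 0.47 (adjusted p = 0.070), and Bmpr2 of the activin list fell by 0.65 (adjusted p = 0.046). In that comparison 16.3% of 13031 genes passed, but only 3 genes did with the identifier number as a block.

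Of 10 transcription factors linked to the members, 0 passed in WT obese livers. Over all genes 6.27% passed there and 24.1% in KO obese livers. In KO obese livers Foxo1, a factor gene of the fasting response, rose by 0.62 (adjusted p = 0.094), while Cebpa, a hepatocyte factor gene, fell by 0.81 with no overlap between groups (adjusted p = 0.0064). Cebpa was also higher in KO lean than in WT lean livers by 0.69 (adjusted p = 0.042), and Rora was lower by 0.50 (adjusted p = 0.063). Between these lean groups 16.3% of genes passed, and only 3 genes with the identifier number as a block. Zfpm1, a transcriptional cofactor gene, and Ap2a2, an endocytic adaptor gene, were most like Inhbc (0.608 and 0.667), and Agphd1 and Fam160b1 were most like Inhbe (0.552 and 0.57).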

How the data were processed

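RNA was taken from whole liver of 42 mice with 1 library per mouse. Per the labels and methods, the authors sequenced TruSeq stranded libraries on a NovaSeq, aligned read pairs to mm10 with Bowtie2, which does not split reads at introns, counted genes with featureCounts and ran DESeq2 per comparison. The deposited signal values are reads divided by a size factor within each table of 14 libraries, so groups were compared within a table only. Columns of the authors' fold changes and p-values were not used. Whole reads were recovered from the deposited values (100% within a tolerance of 0.1).

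Members were tested with limma (3.58.1, R 4.3.3, lmFit and eBayes with trend, two-sided) after adding 1 to normalized counts and taking log2. Genes whose mean was below 5 were left out, p-values were adjusted by Benjamini and Hochberg over all genes, and the threshold was 0.1. Log2 differences are on that scale. Differences between diet or RvE1 effects were fitted over the 28 libraries of a pair of tables. edgeR (4.0.16) and DESeq2 (1.42.0) on the recovered reads, other scalings, filters and pseudocounts, a block for the identifier number and leaving out each mouse were alternatives. The models were tested on simulated counts that were drawn independently for each library. That test does not cover likeness among mice that share an identifier number. Each library was a separate mouse. The smallest chi-square per gene between libraries of a group was 21.9, so none was a repeat.

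The members and the gene lists were chosen with earlier results of these data known. Named genes were all members, up to 4 list genes with the smallest adjusted p under 0.1 per comparison, all genes of the list of 7 relatives, and the 2 genes most like each member over the 28 diet libraries. Nr1d1 was named beside Tsku after its values were seen, and some listed genes are not reported here. Exon lengths, positions and overlaps are from GENCODE on GRCm38 and promoters from RefSeq on GRCm38.p6, which had a window for 6 of 8 members and none for Enho and Fgl1.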

Additional observations from a re-analysis of the deposited data

Results flagged for a closer look

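Within groups of 7 mice, 7 of 48 member and group pairs held a mouse that stood apart by Dixon's 95% criterion. By this criterion, the gap to the nearest neighbour was too large a part of the group's range. For normally distributed values chance flags about 1 in 20. The criterion was applied to normalized counts without a log, so the 7 cannot be set against that rate. The KO obese mouse 23L, the only KO obese mouse with that identifier number, had the shallowest of the 42 libraries, at 15992525 reads on listed genes. It made up 3 of the 7, with 215813 normalized counts of Ahsg (next 151951), 10361 of Fetub (next 7385) and 1131 of Enho (next 520). The others were Tsku in the WT obese mouse 22L (6319, next 4650), Enho in the WT obese mouse 27RL (1881, next 667), Fetub in the KO lean mouse 20R (9265, next 6335) and Fetub in the WT obese+RvE1 mouse 30R (11136, next 7760). In every case the mouse was the highest of its group.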

How the results depend on the processing

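Direction was kept by each member in each alternative, where an estimate within its own SE of 0 was given none. In WT obese against WT lean mice 1 member passed in place of 2 when the identifier number entered as a random block, with a threshold of 0.05 and with edgeR, and 4 passed with DESeq2 (Inhbe and Enho added). In KO obese against KO lean mice the count was 3 and lay between 2 and 4 in the settings that kept all mice. In KO lean against WT lean mice 2 passed when scaled to total reads, 4 with library quality weights and 1 with DESeq2, in place of 0. For the diet effect of KO minus WT 1 passed with quality weights and 1 with DESeq2. With 1 mouse left out the counts ran from 1 to 2 (WT diet), 2 to 4 (KO diet), 0 to 2 (lean genotypes) and 0 to 1 (diet effect of KO minus WT). With all mice of 1 identifier number left out, an alternative chosen after seeing the data, they ran from 0 to 2, 1 to 4, 0 to 2 and 0 to 1. The counts of the other 4 tests stayed at 0 throughout.

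Without the mice numbered 27 or 6 the WT diet count was 0. Under the block the number of all genes passing fell from 878 to 279 (WT diet), from 3422 to 1057 (KO diet) and from 2123 to 3 (lean genotypes). Quality weights raised the first to 1605, the second to 5737 and the third to 4297, and those passing for the diet effect of KO minus WT from 1 to 2476. DESeq2 raised the first to 1367 and that for the diet effect to 887, and scaling to total reads lowered the first to 510. No paired analysis was possible because the replicate numbers only name the mice in accession order and only 1 identifier number (23, in KO obese and KO obese+RvE1) is shared by groups that were compared. Enho, the least abundant member, was counted by 163 reads in its lowest library, and counting noise was not compared with the spread between mice.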
